A study of Homo sapiens with 12 samples.

Results

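NOTCH receptors, ligands and target genes were followed across 3 days of human cardiomyocyte differentiation in cells labelled as E2A knockout and in wild-type cells. They are 10 genes of the 17096 listed, taken by symbol: the receptors NOTCH1, NOTCH2 and NOTCH3, the ligands JAG1, DLL1 and DLL3, and the targets HES1, HES4, HEY1 and HEY2. All 10 were measured in every library and all 10 passed the filter on low values. Every one of the 17096 listed genes had signal in every library, so the first of these holds for the whole list. Genes silent in any library are missing from it, which can include genes of the pathway and marker lists below. The cells were H7, a human embryonic stem cell line, taken through directed differentiation. The groups were E2A-/- cells at days 3, 7 and 15 and wild-type cells at days 3, 7 and 15, with 2 libraries in each group and 12 in all. The labels call the day 3 cells cardiac mesoderm and the cells of days 7 and 15 cardiomyocytes. E2A is an older name of TCF3, whose product is an E protein that pairs with tissue-specific basic helix-loop-helix factors on DNA. The sources used here give neither the clone or clones behind the knockout nor the position of the edit nor the origin of the replicates. The p-values therefore measure only the spread between these libraries, which may be technical.

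NOTCH receptors are single-pass membrane proteins that are cut when a ligand on a neighbouring cell binds them. The released intracellular part enters the nucleus, joins the DNA-binding protein RBPJ and a Mastermind coactivator, and switches on genes such as the HES and HEY repressors. In the developing heart the pathway is known for its part in endocardium, valves, trabeculae and the outflow tract, and in early mesoderm for the segmentation clock.

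The libraries held 577716 to 734958 summed FPKM (sequenced fragments scaled to transcript length and library depth), with an estimated depth of 6800000 to 11700000 fragments. The 2 libraries of a group had r of 0.973 to 0.990 with each other across genes. Mitochondrially encoded transcripts held 8.14% to 26.2% of the summed FPKM. FPKM of TCF3 (chromosome 19, 1609290 to 1652605) was 145.9 and 148.1 in the labelled knockout libraries at day 3, against 179.5 and 148.9 in wild type. At day 7 it was 179.9 and 172.1 in the labelled knockout, against 135.2 and 138.0 in wild type. At day 15 it was 169.7 and 108.3 in the labelled knockout, against 74.4 and 98.2 in wild type, a log2 change of 0.66 (limma adjusted p = 0.0234) that did not pass without the first library of either genotype (0.34 and 0.46, adjusted p = 0.147 and 0.167). TCF3 mRNA was thus not lower in the libraries labelled knockout at days 7 and 15, and these values do not check the label. At day 3 the primitive streak and mesoderm gene EOMES stood at 52.3 and 48.9 FPKM in the labelled knockout, against 187.9 and 181.7 in wild type. The cardiac troponin gene TNNT2 was at 1.22 FPKM or less in all 4 libraries of that day. At day 7 TNNT2 was 237.3 and 181.7 FPKM in the labelled knockout, against 810.2 and 852.0 in wild type. The cells called cardiomyocytes thus carried the marker in both genotypes, at different levels.

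**Figure D1:**
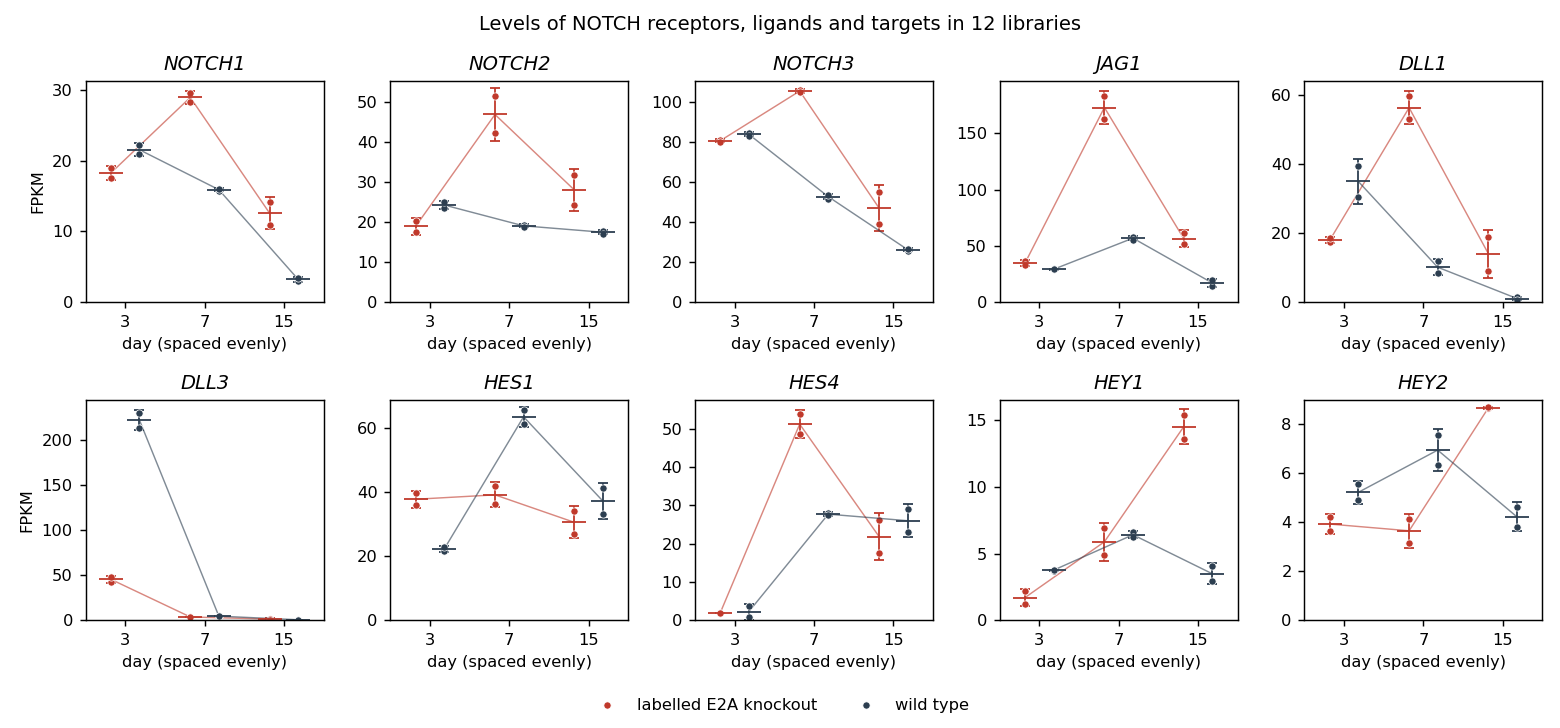
FPKM of the 10 genes (vertical axes, each from 0) by day (horizontal axes, days spaced evenly), for labelled E2A knockout in red on the left and wild type in dark blue on the right of each day. Points are single libraries, horizontal marks and bars are the mean ± SD (n = 2), and the lines join the means. At day 7 both labelled knockout libraries stand above both wild-type libraries for the 3 receptors, JAG1, DLL1 and HES4.

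The receptors were set side by side first. At day 3 none of the 3 passed the test between genotypes, and at days 7 and 15 all 3 were higher in the labelled knockout. NOTCH3 had the highest level of the 3 in every library. Changes are given as the difference of log2(FPKM + 1), labelled knockout minus wild type, with its SE from limma and a p adjusted over all 16295 genes tested.

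NOTCH1 (ENSG00000148400, chromosome 9, 136494433 to 136545786, GRCh38, minus strand) encodes the receptor best known for endocardial and haematopoietic development. It stood at 18.9 and 17.6 FPKM in the labelled knockout at day 3, against 20.9 and 22.2 FPKM in wild type. At day 7 it was 28.3 and 29.6 FPKM in the labelled knockout, against 15.8 and 16.0 FPKM in wild type. At day 15 it was 14.1 and 10.95 FPKM in the labelled knockout, against 2.94 and 3.42 FPKM in wild type. The groups did not overlap at any day: the labelled knockout was the lower at day 3 and the higher at days 7 and 15. The log2 change was −0.23 ± 0.15 at day 3 (adjusted p = 0.293), 0.83 ± 0.15 at day 7 (adjusted p = 0.00130) and 1.69 ± 0.15 at day 15 (adjusted p = 2.62e-05). The 95% interval of the day 3 difference ran from −0.55 to 0.09.

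NOTCH2 (ENSG00000134250, chromosome 1, 119911553 to 120069626, minus strand) encodes a receptor that acts in smooth muscle, kidney and liver among other tissues. Its reads can be shared with the near-identical NOTCH2NL copies, so its level is uncertain. NOTCH2 was 20.3 and 17.4 FPKM in the labelled knockout at day 3, against 23.5 and 24.9 FPKM in wild type. It was 51.4 and 42.2 FPKM in the labelled knockout at day 7, against 19.3 and 18.7 FPKM in wild type. It was 31.6 and 24.2 FPKM in the labelled knockout at day 15, against 17.7 and 17.1 FPKM in wild type. Wild-type NOTCH2 thus lay between 17.1 and 24.9 FPKM at all days, while the labelled knockout libraries of day 7 held the highest values of all 12. For NOTCH2 the log2 change was −0.35 ± 0.15 at day 3 (adjusted p = 0.129), 1.25 ± 0.15 at day 7 (adjusted p = 1.48e-04) and 0.64 ± 0.15 at day 15 (adjusted p = 0.00861). The day 15 call was lost without the first labelled knockout library (0.46, adjusted p = 0.0509) and in a fit on the compared groups alone (adjusted p = 0.0509).

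NOTCH3 (ENSG00000074181, chromosome 19, 15159038 to 15200981, minus strand) encodes the receptor of vascular smooth muscle and pericytes. Its level was 81.2 and 80.0 FPKM in the labelled knockout at day 3, against 84.5 and 83.0 FPKM in wild type. At day 7 the labelled knockout libraries held 106.1 and 104.8 FPKM, against 51.6 and 53.6 FPKM in wild type. At day 15 they held 55.0 and 38.8 FPKM, against 25.7 and 26.6 FPKM in wild type. The groups of days 7 and 15 did not overlap. The NOTCH3 change was −0.05 ± 0.14 at day 3 (adjusted p = 0.822, 95% interval −0.37 to 0.26), 0.99 ± 0.14 at day 7 (adjusted p = 3.78e-04) and 0.80 ± 0.14 at day 15 (adjusted p = 0.00172). When each library was scaled to its sum without mitochondrial genes the day 3 value was 0.12, of the opposite sign.

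The ligands showed larger differences. DLL1 and DLL3 were lower in the labelled knockout at day 3, and JAG1 and DLL1 were higher there at days 7 and 15. Of these 3 ligands, JAG1 had the highest level at days 7 and 15 in both genotypes, and DLL3 at day 3. The ligands JAG2 and DLK1, given further below, are outside this ranking. DLK1 averaged 258.7 FPKM in the labelled knockout and 450.7 FPKM in wild type at day 7, above JAG1 in both.

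JAG1 (ENSG00000101384, chromosome 20, 10637684 to 10673999, minus strand) encodes a Jagged ligand whose loss causes Alagille syndrome with right-sided heart defects. JAG1 was 36.5 and 32.7 FPKM in the labelled knockout at day 3, against 28.9 and 29.2 FPKM in wild type. It was 183.6 and 162.5 FPKM in the labelled knockout at day 7, against 58.2 and 55.3 FPKM in wild type. It was 61.5 and 51.2 FPKM in the labelled knockout at day 15, against 14.6 and 19.1 FPKM in wild type. Every labelled knockout library stood above both wild-type libraries of its day. The change of JAG1 was 0.24 ± 0.15 at day 3 (adjusted p = 0.259), 1.59 ± 0.15 at day 7 (adjusted p = 2.56e-05) and 1.69 ± 0.15 at day 15 (adjusted p = 2.55e-05). The day 3 difference passed with libraries scaled to the sum without mitochondrial genes (0.41, adjusted p = 0.0387).

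DLL1 (ENSG00000198719, chromosome 6, 170282206 to 170306565, minus strand) encodes a Delta ligand that acts in somite formation and neural progenitors. The annotation has it overlapping FAM120B on the opposite strand, and the strand setting of the counting is not given, so reads of the overlap cannot be told apart. DLL1 was 17.3 and 18.5 FPKM in the labelled knockout at day 3, against 30.4 and 39.5 FPKM in wild type. It was 59.7 and 53.0 FPKM in the labelled knockout at day 7, against 8.40 and 11.7 FPKM in wild type. It was 18.8 and 9.07 FPKM in the labelled knockout at day 15, against 1.28 and 0.664 FPKM in wild type. Labelled knockout DLL1 was therefore below wild type at day 3 and above it at days 7 and 15, with no overlap at any day. The change of DLL1 was −0.92 ± 0.29 at day 3 (adjusted p = 0.0444), 2.39 ± 0.29 at day 7 (adjusted p = 1.45e-04) and 2.86 ± 0.29 at day 15 (adjusted p = 7.27e-05). The day 3 call did not hold without any single one of the 4 libraries of that day (adjusted p = 0.0786 to 0.222), nor with libraries scaled to the sum without mitochondrial genes (−0.74, adjusted p = 0.0776). It was also lost with a pseudocount of 0.1 (adjusted p = 0.0734) and with limma run without its trend (adjusted p = 0.0537).

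DLL3 (ENSG00000090932, chromosome 19, 39498895 to 39508481, plus strand) encodes a divergent Delta protein that does not activate NOTCH in neighbouring cells and acts in presomitic mesoderm. DLL3 was 43.0 and 48.2 FPKM in the labelled knockout at day 3, against 214.3 and 230.4 FPKM in wild type. At day 7 it was 3.67 and 3.96 FPKM in the labelled knockout, against 4.88 and 4.54 FPKM in wild type. At day 15 it was 1.99 and 0.879 FPKM in the labelled knockout, against 0.725 and 0.698 FPKM in wild type. Its group means spanned 312-fold over the 6 groups, the widest range of the 10 genes, followed by DLL1 at 58.0-fold and HES4 at 25.5-fold. The log2 change of DLL3 was −2.26 ± 0.20 at day 3 (adjusted p = 5.29e-05), −0.25 ± 0.20 at day 7 (adjusted p = 0.350) and 0.47 ± 0.20 at day 15 (adjusted p = 0.0910). The day 15 difference passed with a pseudocount of 0.1 (0.82, adjusted p = 0.0494) and without the second labelled knockout library (0.81, adjusted p = 0.00384). Of the presomitic mesoderm markers, TBX6 was 9.39 and 9.19 FPKM in the labelled knockout at day 3, against 17.7 and 14.0 FPKM in wild type. The summed level of the 3 measured markers of that list was 11.5 and 11.8 FPKM in the labelled knockout, against 19.7 and 16.0 FPKM in wild type, with UNCX under 1 FPKM in both. TBX6 makes up most of that sum, and TCF15 was 1.97 and 2.45 FPKM in the labelled knockout, against 1.82 and 1.84 FPKM in wild type. Of the 3, 1 was lower and 2 did not pass, with a median change of −0.06. Their part in the DLL1 and DLL3 values was not tested.

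The targets are HES and HEY genes, which encode basic helix-loop-helix repressors. Unlike the receptors, they did not move in 1 direction between genotypes. Their promoters are shown because RBPJ, the factor through which NOTCH acts, is known to bind the letters TGGGAA. Promoters of 7 of the 10 genes were found in RefSeq (GRCh38.p14), as windows of 300 bases with 250 before and 50 after the annotated start. DLL1, DLL3 and HEY1 are not among them. The letters TGGGAA occurred, on either strand, in 3 of the 7 windows (HES1, HES4 and HEY2), against 24.0% of 35116 promoters of the same length. HES1 had the letters at 84 and 70 bases before the start, HES4 at 76 bases before it, and HEY2 at 213 and 3 bases before it. The window of HEY2 lies inside the GENCODE gene, whose annotated start is further upstream. The E-box CANNTG, the general letters bound by E proteins, was in 0 of the 7 windows, against 68.7% of all promoters. This says only that these letters are not in those windows. The N-box CACNAG, bound by HES proteins, was in 4 of the 7 (NOTCH1, NOTCH2, NOTCH3 and HES1), against 38.0% of all promoters, with 4 matches in HES1. Each motif was searched on both strands, and no match of TGGGAA overlapped a match of CACNAG in these windows. The sequences run 5′ to 3′ on the strand of the gene, from 250 bases before to 20 after the start, with TGGGAA or its reverse complement TTCCCA in capitals. They lie at chr3:194135898-194136167 (plus strand) for HES1, at chr1:1000078-1000347 (minus strand) for HES4 and at chr6:125749382-125749651 (plus strand) for HEY2.
HES1: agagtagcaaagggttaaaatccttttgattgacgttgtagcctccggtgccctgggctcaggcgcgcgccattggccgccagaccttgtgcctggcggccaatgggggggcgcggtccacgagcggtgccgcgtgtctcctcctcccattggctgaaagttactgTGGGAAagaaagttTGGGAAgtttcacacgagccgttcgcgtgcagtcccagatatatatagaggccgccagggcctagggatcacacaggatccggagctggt
HES4: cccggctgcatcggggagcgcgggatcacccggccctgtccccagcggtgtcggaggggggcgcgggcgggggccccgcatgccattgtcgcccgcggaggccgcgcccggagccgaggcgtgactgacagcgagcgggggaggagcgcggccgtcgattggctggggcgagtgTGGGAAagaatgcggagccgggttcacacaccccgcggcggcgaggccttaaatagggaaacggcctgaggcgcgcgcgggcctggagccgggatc
HEY2: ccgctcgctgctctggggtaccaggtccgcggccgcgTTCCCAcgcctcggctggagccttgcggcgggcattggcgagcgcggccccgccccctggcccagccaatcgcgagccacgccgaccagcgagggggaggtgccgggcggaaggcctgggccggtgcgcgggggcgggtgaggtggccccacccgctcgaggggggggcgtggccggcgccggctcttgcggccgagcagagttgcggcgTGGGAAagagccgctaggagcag

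HES1 (ENSG00000114315, chromosome 3, 194136145 to 194138732, plus strand) encodes a repressor that also represses its own gene, and that keeps progenitors undifferentiated. HES1 was 35.9 and 39.6 FPKM in the labelled knockout at day 3, against 21.6 and 22.9 FPKM in wild type. It was 36.4 and 41.9 FPKM in the labelled knockout at day 7, against 61.2 and 65.6 FPKM in wild type. It was 27.1 and 34.0 FPKM in the labelled knockout at day 15, against 33.2 and 41.1 FPKM in wild type. HES1 was thus higher in the labelled knockout at day 3, lower at day 7, and the groups overlapped at day 15. As log2 changes these were 0.74 ± 0.15 at day 3 (adjusted p = 0.00567), −0.69 ± 0.15 at day 7 (adjusted p = 0.00418) and −0.28 ± 0.15 at day 15 (adjusted p = 0.174).

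HES4 (ENSG00000188290, chromosome 1, 998962 to 1000172, minus strand) is a relative of HES1 that the mouse lacks. HES4 was 1.995 and 2.03 FPKM in the labelled knockout at day 3, against 3.79 and 0.823 FPKM in wild type, where the wild-type libraries lay on both sides. It was 48.6 and 53.8 FPKM in the labelled knockout at day 7, against 28.0 and 27.4 FPKM in wild type. It was 17.5 and 26.2 FPKM in the labelled knockout at day 15, against 22.9 and 29.1 FPKM in wild type. The day 7 groups did not overlap, and the log2 change of 0.86 ± 0.36 did not pass in the model of all 6 groups (adjusted p = 0.0753). It passed with libraries scaled to the sum without mitochondrial genes (1.06, adjusted p = 0.0316) and in a fit on the day 7 groups alone (adjusted p = 0.00251). The changes at days 3 and 15 were 0.03 ± 0.36 (adjusted p = 0.965) and −0.26 ± 0.36 (adjusted p = 0.606).

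HEY1 (ENSG00000164683, chromosome 8, 79764010 to 79767863, minus strand) encodes a repressor of atrial and endocardial cells. HEY1 was 2.18 and 1.25 FPKM in the labelled knockout at day 3, against 3.73 and 3.80 FPKM in wild type. It was 6.90 and 4.88 FPKM in the labelled knockout at day 7, against 6.59 and 6.24 FPKM in wild type. It was 13.6 and 15.4 FPKM in the labelled knockout at day 15, against 2.94 and 4.05 FPKM in wild type. The groups overlapped at day 7 and stood far apart at day 15. HEY1 had a log2 change of −0.83 ± 0.22 at day 3 (adjusted p = 0.0200), −0.12 ± 0.22 at day 7 (adjusted p = 0.685) and 1.80 ± 0.22 at day 15 (adjusted p = 2.08e-04). The day 3 call was lost without the first wild-type library (−0.84, adjusted p = 0.0845), the second wild-type library (−0.82, adjusted p = 0.0910) or the second labelled knockout library (−0.58, adjusted p = 0.137).

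HEY2 (ENSG00000135547, chromosome 6, 125747664 to 125761269, plus strand) encodes a repressor of the compact ventricular myocardium. HEY2 was 4.23 and 3.64 FPKM in the labelled knockout at day 3, against 4.90 and 5.56 FPKM in wild type. It was 3.17 and 4.15 FPKM in the labelled knockout at day 7, against 6.35 and 7.56 FPKM in wild type. It was 8.66 and 8.72 FPKM in the labelled knockout at day 15, against 3.81 and 4.64 FPKM in wild type. The order of the genotypes at day 15 was thus the opposite of that at day 7, with no overlap at either day. The genotype difference of HEY2 was −0.34 ± 0.18 at day 3 (adjusted p = 0.199), −0.78 ± 0.18 at day 7 (adjusted p = 0.00570) and 0.90 ± 0.18 at day 15 (adjusted p = 0.00335). Without the second wild-type library the day 7 change was −0.67 (adjusted p = 0.0541).

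**Figure D2:**
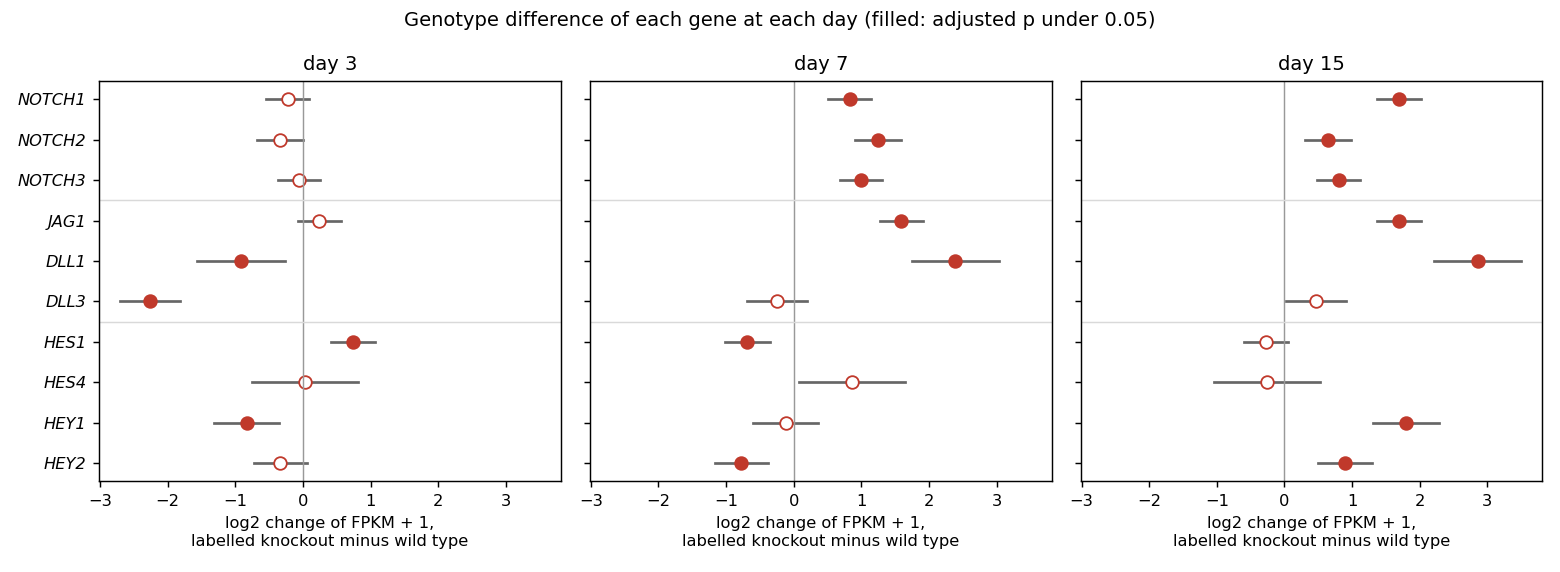
Log2 change of FPKM + 1 (horizontal axis), labelled knockout minus wild type, for each gene (rows) at each day (panels). Points are limma estimates, lines are 95% intervals and filled points have an adjusted p under 0.05. Filled points stand on both sides of 0 at days 3 and 7, and the 7 filled points of day 15 are all above it.

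Counted together, 1 of the 10 genes was higher (HES1) and 3 were lower (DLL1, DLL3 and HEY1) in the labelled knockout at day 3. Across all genes 23.6% passed at that day, 9.51% as higher and 14.1% as lower. At day 7, 5 were higher (the 3 receptors, JAG1 and DLL1) and 2 lower (HES1 and HEY2), where 42.0% of all genes passed, 22.1% as higher and 19.9% as lower. At day 15, 7 were higher (the 3 receptors, JAG1, DLL1, HEY1 and HEY2) and 0 lower, where 35.1% of all genes passed, 18.9% as higher and 16.2% as lower. At an unadjusted limma p under 0.05, 8 were higher and 0 lower at that day. The median change of the 10 was −0.28 at day 3, 0.84 at day 7 and 0.85 at day 15, where the median of all genes was −0.01, 0.06 and 0.03. The mitochondrial share of FPKM at day 7 was 20.2% and 18.5% in the labelled knockout, against 8.55% and 8.14% in wild type. Scaling to the sum without mitochondrial genes moved the median of all genes to 0.12 at day 3 and 0.22 at day 7. It moved the share of calls that were higher to 62.3% at day 3 and 68.2% at day 7, against 40.3% and 52.6% in the values as deposited.

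Markers of several cell types moved with genotype at the same days. At day 3, beside the calls of DLL1, DLL3, HEY1 and HES1, 5 of the 6 measured endoderm markers were lower, with a median change of −1.46. Their sum was 156.4 and 165.7 FPKM in the labelled knockout, against 426.7 and 447.6 FPKM in wild type. Of the 5 neural markers tested at that day, 4 were higher and 1 lower, and the neural sum was 430.3 and 429.5 FPKM in the labelled knockout, against 271.0 and 268.1 FPKM in wild type. Of the 7 measured mural and smooth muscle markers, 4 were lower and 1 higher at day 3, with a median change of −0.81. They summed to 43.1 and 39.0 FPKM in the labelled knockout, against 73.9 and 68.4 FPKM in wild type. The 8 cardiomyocyte markers summed to 1451 and 1333 FPKM in the labelled knockout at day 7, against 7619 and 7692 FPKM in wild type, and all 8 were lower. At day 15 they summed to 4491 and 3731 FPKM in the labelled knockout, against 10200 and 11130 FPKM in wild type, with 1 higher and 4 lower. Endothelial markers, of which 8 of 11 were measured, summed to 91.7 and 83.2 FPKM in the labelled knockout at day 7, against 161.1 and 152.2 FPKM in wild type. At day 15 they summed to 103.3 and 88.3 FPKM in the labelled knockout, against 88.6 and 89.8 FPKM in wild type, and 6 were lower at day 7 while 5 were higher and 1 lower at day 15. The endothelial cadherin gene CDH5 was 7.14 and 6.20 FPKM in the labelled knockout at day 15, against 2.41 and 2.04 FPKM in wild type. Mural and smooth muscle markers, 7 of 8 measured, summed to 188.5 and 169.5 FPKM in the labelled knockout at day 7, against 993.6 and 1022 FPKM in wild type. At day 15 these markers summed to 457.6 and 388.8 FPKM in the labelled knockout, against 1813 and 1977 FPKM in wild type. Of these 7 markers, 4 were lower and 3 did not pass at day 7, and 1 was higher and 5 lower at day 15. The abundant ACTA2, a smooth muscle actin, held 140.8 and 103.7 FPKM of the day 15 sum in the labelled knockout, against 506.0 and 537.6 FPKM in wild type. PDGFRB, a pericyte receptor, was 13.7 and 18.2 FPKM in the labelled knockout at day 15, against 6.53 and 7.56 FPKM in wild type. That direction is opposite to the 5 lower markers of the list. At day 7 PDGFRB was 18.8 and 15.5 FPKM in the labelled knockout, against 14.3 and 10.3 FPKM in wild type, a difference that did not pass. Neural markers, 6 of 11 measured, summed to 305.0 and 303.2 FPKM in the labelled knockout at day 7, against 98.8 and 105.7 FPKM in wild type. SOX2, a marker that neural and pluripotent cells share, held 153.2 and 157.3 FPKM of that sum in the labelled knockout and 21.0 and 21.2 FPKM in wild type. At day 15 the neural sum was 93.6 and 108.2 FPKM in the labelled knockout, against 41.3 and 46.5 FPKM in wild type. Endoderm markers summed to 43.6 and 41.4 FPKM in the labelled knockout at day 7, against 129.1 and 142.0 FPKM in wild type, with 4 of 6 lower. Their day 15 sum was 37.4 and 38.6 FPKM in the labelled knockout, against 140.3 and 160.6 FPKM in wild type, with 3 of 6 lower. The 4 measured of 7 pluripotency markers summed to 425.1 and 377.6 FPKM in the labelled knockout at day 15, against 113.2 and 130.5 FPKM in wild type, with 1 higher and 1 lower. The part of these cell types in the NOTCH values was not tested. In bulk libraries, fewer cells of a type and less RNA of a gene per cell cannot be told apart.

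Summed by role, the receptors held 185.8 and 176.5 FPKM in the labelled knockout at day 7, against 86.7 and 88.2 FPKM in wild type. At day 3 the receptor sum was 120.4 and 115.0 FPKM in the labelled knockout, against 128.9 and 130.1 FPKM in wild type. At day 15 it was 100.8 and 74.0 FPKM in the labelled knockout, against 46.3 and 47.0 FPKM in wild type. NOTCH3 made up most of each receptor sum, between 52.4% and 69.6%, in both genotypes and at all days. NOTCH1 was 14.0% and 14.8% of the receptor sum in the labelled knockout at day 15, against 6.34% and 7.26% in wild type.

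The ligand sum changed order between days. It was 96.8 and 99.3 FPKM in the labelled knockout at day 3, against 273.6 and 299.1 FPKM in wild type. At day 7 it was 246.9 and 219.5 FPKM in the labelled knockout, against 71.5 and 71.6 FPKM in wild type. The day 15 ligands summed to 82.3 and 61.1 FPKM in the labelled knockout, against 16.6 and 20.4 FPKM in wild type. JAG2, a further Jagged ligand, and DLK1 are not in these sums. JAG2 averaged 9.31 ± 1.61 FPKM in the labelled knockout at day 15, against 13.85 ± 1.84 FPKM in wild type (SD, n = 2 each). At day 7 JAG2 was 11.7 ± 3.06 FPKM, against 14.9 ± 0.126 FPKM. Its log2 change was 0.62, −0.35 and −0.53 at days 3, 7 and 15 (limma adjusted p = 0.0642, 0.224 and 0.0823). In make-up, DLL3 held 44.4% and 48.5% of the day 3 sum in the labelled knockout, against 78.3% and 77.0% in wild type. JAG1 held 37.7% and 32.9% of the sum in the labelled knockout at that day, against 10.6% and 9.75% in wild type. At day 7 JAG1 held 74.3% and 74.1% in the labelled knockout, against 81.4% and 77.3% in wild type. The ratio of the ligand sum to the receptor sum at day 3 was 0.804 and 0.864 in the labelled knockout, against 2.12 and 2.30 in wild type. Most of that wild-type ligand sum was DLL3, which does not activate NOTCH in neighbouring cells. JAG1 at day 3 was 36.5 and 32.7 FPKM in the labelled knockout, against 28.9 and 29.2 FPKM in wild type. DLL1 was 17.3 and 18.5 FPKM, against 30.4 and 39.5 FPKM. At day 7 the ratio of ligand sum to receptor sum was 1.33 and 1.24 in the labelled knockout, against 0.825 and 0.811 in wild type. At day 15 it was 0.816 and 0.827 in the labelled knockout, against 0.358 and 0.434 in wild type.

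The target sums of the genotypes overlapped at days 7 and 15. At day 3 the sum was 44.3 and 46.5 FPKM in the labelled knockout, against 34.0 and 33.1 FPKM in wild type. At day 7 it was 95.01 and 104.7 FPKM in the labelled knockout, against 102.2 and 106.8 FPKM in wild type. The day 15 sum was 66.8 and 84.4 FPKM in the labelled knockout, against 62.9 and 78.9 FPKM in wild type. The leading gene of day 7 was not the same, as HES4 held 51.1% and 51.4% of the day 7 sum in the labelled knockout, against 27.4% and 25.7% in wild type. HES1 held 38.3% and 40.0% of that sum in the labelled knockout, against 59.9% and 61.4% in wild type. At day 15 HEY1 held 20.4% and 18.3% of the target sum in the labelled knockout, against 4.67% and 5.13% in wild type.

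**Figure D3:**
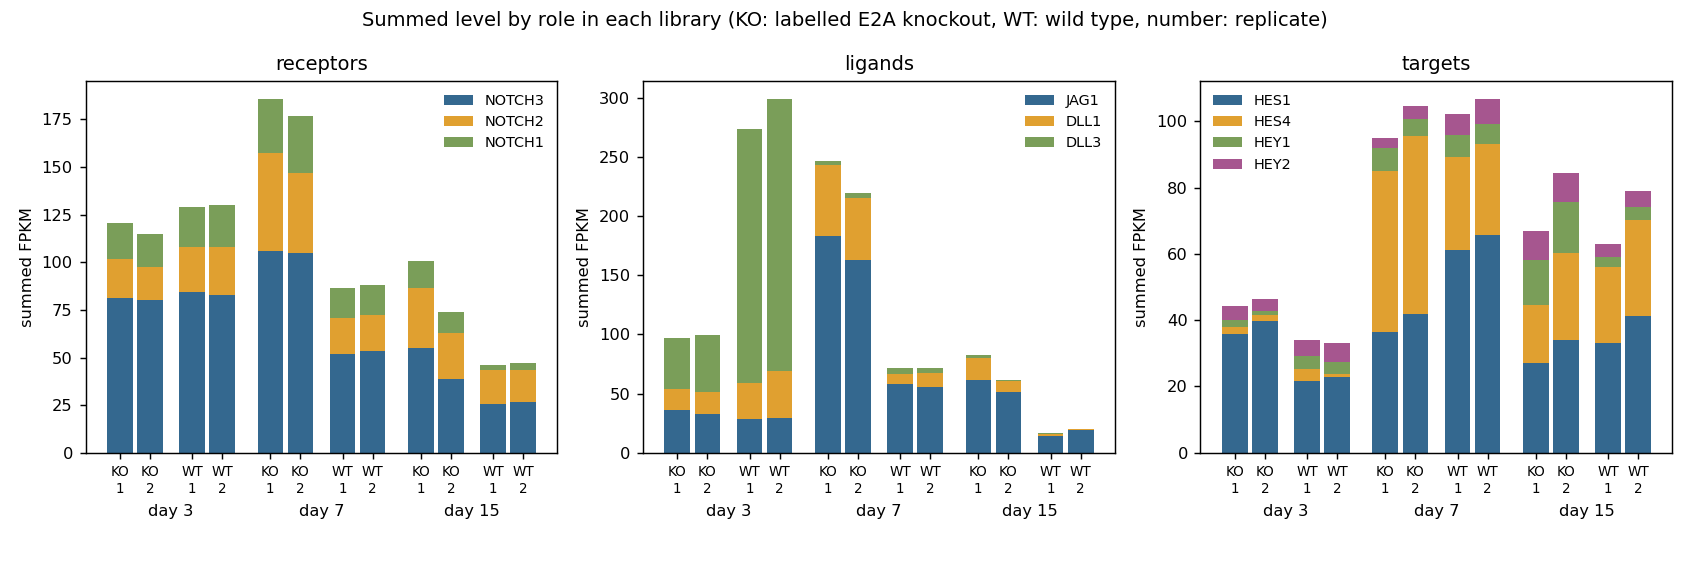
Summed FPKM (vertical axes) of the receptors, ligands and targets in each library, stacked by gene, with 2 labelled knockout libraries left of 2 wild-type libraries at each day. The ligand bars of the labelled knockout are shorter than those of wild type at day 3 (96.8 and 99.3, against 273.6 and 299.1 FPKM) and taller at days 7 and 15. DLL3 holds 78.3% and 77.0% of the wild-type ligand bars at day 3.

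Over time the genotypes took different courses. In labelled knockout cells, 6 genes were higher at day 7 than at day 3 and 1 was lower, where 28.6% of all genes passed, 17.3% as higher and 11.4% as lower. The 6 were HES4 (log2 change 4.11), JAG1 (2.29), DLL1 (1.60), HEY1 (1.35), NOTCH2 (1.27) and NOTCH1 (0.64), and DLL3 fell by 3.27 on the log2 scale. In wild-type cells, 4 were higher at day 7 than at day 3 and 4 were lower, where 43.7% of all genes passed, 21.1% as higher and 22.6% as lower. The higher ones were HES4 (3.28), HES1 (1.47), JAG1 (0.94) and HEY1 (0.64), and the lower ones were DLL3 (−5.29), DLL1 (−1.70), NOTCH3 (−0.66) and NOTCH1 (−0.42). DLL1 and NOTCH1 thus moved in opposite directions over these days, up in the labelled knockout and down in wild type. Without the second labelled knockout library of day 3, the rise of NOTCH1 did not pass (0.59, adjusted p = 0.0538). The wild-type calls of NOTCH1 and HEY1 were lost without any single one of the 4 libraries (adjusted p = 0.0984 to 0.169 for NOTCH1 and 0.104 to 0.138 for HEY1). The median of the 10 was 0.95 in the labelled knockout and 0.01 in wild type, beside 0.06 and −0.03 over all genes.

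At day 15 against day 7, 7 genes were lower and 2 higher in labelled knockout cells, where 28.4% of all genes passed, 13.3% as higher and 15.1% as lower. The lower ones were DLL1 (−2.02), JAG1 (−1.60), HES4 (−1.21), NOTCH3 (−1.17), NOTCH1 (−1.15), DLL3 (−1.02) and NOTCH2 (−0.73), and the higher ones were HEY1 (1.18) and HEY2 (1.06). In wild-type cells 8 were lower and 0 higher, also at an unadjusted limma p under 0.05, where 52.3% of all genes passed, 25.5% as higher and 26.8% as lower. They were DLL1 (−2.49), NOTCH1 (−2.02), DLL3 (−1.74), JAG1 (−1.71), NOTCH3 (−0.98), HES1 (−0.76), HEY1 (−0.73) and HEY2 (−0.61). NOTCH2 (−0.12, adjusted p = 0.535) and HES4 (−0.10, adjusted p = 0.835) did not pass in wild type. HEY1 and HEY2 therefore went up over these days in the labelled knockout and down in wild type. The wild-type call of HEY1 was lost without either day 7 library or the first day 15 library (adjusted p = 0.0573 to 0.117), and that of HEY2 without the second day 7 or the first day 15 library (adjusted p = 0.108 and 0.0953). In the labelled knockout, the HES4 call was lost without either day 7 library or the first day 15 library (adjusted p = 0.0801 to 0.131), and that of NOTCH2 without the first day 7 library (adjusted p = 0.0528). When only the labelled knockout groups of days 15 and 7 were fitted, the calls of DLL3 (adjusted p = 0.0557) and NOTCH2 (adjusted p = 0.0611) were lost, and with a pseudocount of 0.1 that of HES4 (adjusted p = 0.0871). The median of the 10 was −1.09 in the labelled knockout and −0.87 in wild type, beside −0.03 and 0.01 over all genes. With libraries scaled to the sum without mitochondrial genes, the higher share of the wild-type calls was 60.1%, against 48.7% as deposited.

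**Figure D4:**
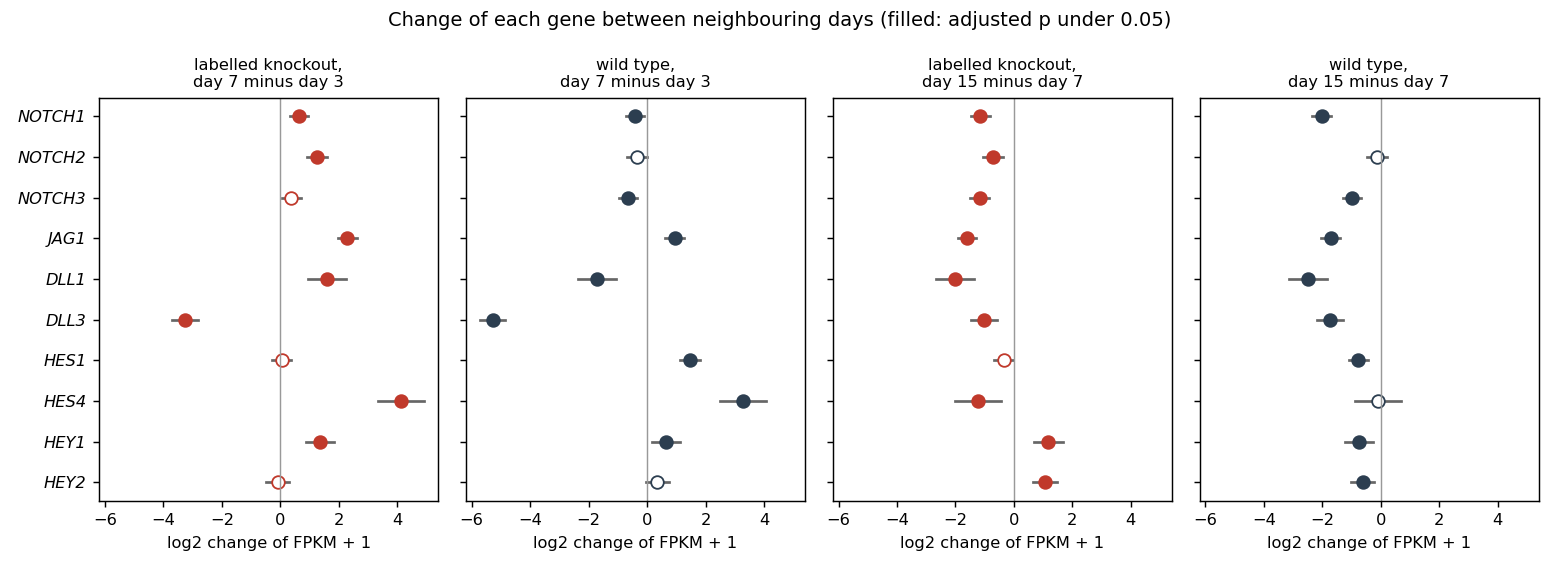
Log2 change of FPKM + 1 (horizontal axis) of each gene (rows) between neighbouring days, later minus earlier, in labelled knockout cells (red) and wild type (dark blue). Points are limma estimates, lines are 95% intervals and filled points have an adjusted p under 0.05. DLL1 stands at 1.60 in the labelled knockout and −1.70 in wild type from day 3 to day 7, and HEY1 at 1.18 and −0.73 from day 7 to day 15.

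The difference of the genotype effect between days was tested in the same model. From day 3 to day 7 it passed for 7 of the 10 genes, where 20.2% of all genes passed, 11.3% upward and 8.90% downward. These were the 3 receptors, the 3 ligands and HES1, with the effect of DLL1 moving by 3.30 ± 0.41 on the log2 scale (adjusted p = 5.65e-04). HES1 was the only 1 of the 7 whose effect moved downward (−1.42 ± 0.21, adjusted p = 0.00140). From day 7 to day 15 it passed for 3 of the 10 (NOTCH1, HEY1 and HEY2), where 31.7% of all genes passed, 16.6% upward and 15.2% downward. The HEY genes led with 1.92 ± 0.31 for HEY1 (adjusted p = 0.00134) and 1.67 ± 0.25 for HEY2 (adjusted p = 9.36e-04). The 2 tests share the day 7 libraries. Scaled to the sum without mitochondrial genes, 37.7% of all calls of the later test were upward, against 52.2% as deposited.

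Across the 6 groups, labelled knockout cells of day 7 had the highest mean of NOTCH1, NOTCH2, NOTCH3, JAG1, DLL1 and HES4, and in each case stood apart from the next group. Wild-type cells of day 3 were next for NOTCH1, NOTCH3 and DLL1. Wild-type cells of day 7 were next for JAG1 and HES4, and did not differ from the following group beyond the spread in either. Wild-type cells of day 3 were highest for DLL3 and those of day 7 for HES1, both apart from the next group. Labelled knockout cells of day 15 were highest for HEY1 and HEY2, apart from the next group. Wild-type cells of day 15 were lowest for all 3 receptors and all 3 ligands, although for NOTCH2 their range met that of the labelled knockout at day 3. The middle ranks of HES1 overlapped, with labelled knockout cells of days 7, 3 and 15 and wild-type cells of day 15 not separated from their neighbours. Such ranks and separations were not counted over all genes, so they are given as a description only. Whether they are more frequent in these genes than in others was not tested.

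The other genes of the pathway were read from a list of 64, of which 60 were measured and tested; DLL4, HES3, HES5 and HELT were not analysed here. At day 3, 6 of the 60 were higher and 14 lower in the labelled knockout, at day 7, 17 were higher and 11 lower, and at day 15, 24 were higher and 6 lower. That is 20, 28 and 30 of the 60 called, beside 23.6%, 42.0% and 35.1% of all genes. The median change was 0.04, 0.07 and 0.41 at these days, beside −0.01, 0.06 and 0.03 over all genes. Of the other receptors and ligands, DLK1, a non-canonical ligand of the Delta family, averaged 87.1 ± 10.2 FPKM in the labelled knockout at day 15, against 13.1 ± 1.30 FPKM in wild type (SD, n = 2 each, here and below). Its log2 change was 3.09 at day 3, −0.80 at day 7 and 2.64 at day 15 (adjusted p = 1.20e-06, 8.48e-04 and 1.05e-06). NOTCH4, an endothelial receptor, was at 2.18 ± 0.54 FPKM in the labelled knockout at day 7, against 0.875 ± 0.051 FPKM in wild type (adjusted p = 0.0158), a call lost without any of 3 of the 4 libraries (adjusted p = 0.0595 to 0.113).

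The glycosyltransferases add sugars to the receptors and alter which ligands they answer to. LFNG, a Fringe enzyme that favours Delta ligands, followed DLL1 in sign, at 14.8 ± 1.34 FPKM in the labelled knockout at day 3, against 53.2 ± 0.78 FPKM in wild type. At day 7 LFNG was 19.8 ± 2.35 FPKM in the labelled knockout, against 10.5 ± 0.16 FPKM in wild type, and its log2 change was −1.79 at day 3, 0.85 at day 7 and 1.26 at day 15 (adjusted p = 8.33e-05, 0.00255 and 3.36e-04). RFNG, another Fringe enzyme, was lower at day 15 (−0.75, adjusted p = 0.00365). In all, 0 of 6 were higher and 3 lower at day 3, by limma's adjusted and unadjusted p alike, and 1 was higher and 1 lower at each of the other days. That is 3, 2 and 2 of the 6 called, beside 23.6%, 42.0% and 35.1% of all genes. The lower calls of EOGT (−1.15, adjusted p = 0.0199) and RFNG (−0.53, adjusted p = 0.0289) at day 3 were lost without any single one of the 4 libraries (adjusted p = 0.0531 to 0.113 and 0.0655 to 0.147). POFUT1, which adds the O-fucose that Fringe extends, was lower at day 7 (−0.39, adjusted p = 0.0464), a call that was lost at −0.25 without the second labelled knockout library (adjusted p = 0.269).

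Of the 9 proteases and γ-secretase subunits, 4 were lower and 0 higher at day 3 (the same counts at an unadjusted limma p under 0.05), 3 lower and 1 higher at day 7, and 1 lower and 5 higher at day 15. The shares called were 44.4%, 44.4% and 66.7%, beside 23.6%, 42.0% and 35.1% of all genes. FURIN, which cuts the receptors during maturation, changed by −1.65 at day 3 and −1.43 at day 7 (adjusted p = 0.00411 and 0.00426). The γ-secretase subunits PSENEN (−1.36 and −0.93, adjusted p = 7.42e-04 and 0.00305) and APH1A (−0.63 and −0.68, adjusted p = 0.00141 and 3.78e-04) were lower at these days as well. At day 15 the sheddase genes ADAM10 (1.10, adjusted p = 0.00194) and ADAM17 (0.88, adjusted p = 0.00129) and the γ-secretase subunit NCSTN (0.66, adjusted p = 0.00248) were higher. PSENEN was still lower at day 15 (−0.74, adjusted p = 0.0123), with a value of −0.48 without the first labelled knockout library. NCSTN was lower at day 3 (−0.40, adjusted p = 0.0401). ADAM10 averaged 139 ± 34.6 FPKM in the labelled knockout at day 15, against 63.9 ± 10.4 FPKM in wild type.

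Of the 13 regulators of endocytosis and turnover, 0 passed at day 3 by limma (4 were higher and 0 lower at an unadjusted p under 0.05), 4 were higher and 2 lower at day 7, and 4 were higher and 1 lower at day 15. The shares at days 7 and 15 were 46.2% and 38.5%, near the 42.0% and 35.1% of all genes. DTX1, a Deltex ubiquitin ligase that is itself a NOTCH target, was 3.81 ± 0.04 FPKM in the labelled knockout at day 15, against 0.172 ± 0.006 FPKM in wild type (log2 change 2.04, adjusted p = 1.10e-04). At day 7 its change was 1.31 (adjusted p = 0.00113). DTX4 (1.00, adjusted p = 6.41e-04) and MIB1, which ubiquitinates ligands (0.91, adjusted p = 0.00124), were higher at day 15. NEURL1B, another ubiquitin ligase, was lower at day 7 (−0.83, adjusted p = 0.00379) and DTX3 higher (0.61, adjusted p = 0.00513).

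Among the nuclear partners, RBPJ itself did not pass at any day, with log2 changes of 0.29, −0.42 and 0.21 (adjusted p = 0.384, 0.147 and 0.490). The coactivator gene CREBBP was higher at day 7, at 46.0 ± 6.79 FPKM in the labelled knockout, against 16.0 ± 1.59 FPKM in wild type (1.46, adjusted p = 4.16e-05). MAML3, a Mastermind coactivator, was lower at day 3 (−1.06, adjusted p = 9.08e-04) and day 7 (−0.51, adjusted p = 0.0210) and higher at day 15 (0.97, adjusted p = 8.44e-04). EP300, a histone acetyltransferase, was higher at day 7 (0.76, adjusted p = 0.0126) and at day 15 (0.84, adjusted p = 0.00922). The day 7 value of EP300 was 0.45 without the first labelled knockout library (adjusted p = 0.112) and did not pass without the first wild-type library (0.71, adjusted p = 0.0707), and the day 15 call was lost without the first labelled knockout library (adjusted p = 0.0605) or the second wild-type library (adjusted p = 0.0606). MAML1 was higher at day 15 (0.49, adjusted p = 0.0250), a value of 0.29 without the first labelled knockout library (adjusted p = 0.134). Of the 13 corepressors, 2 were higher and 4 lower at day 3, 5 higher and 2 lower at day 7, and 6 higher and 3 lower at day 15, which is 46.2%, 53.8% and 69.2% of them, beside 23.6%, 42.0% and 35.1% of all genes. TLE4, a Groucho corepressor that HES proteins recruit, was 59.2 ± 1.11 FPKM in the labelled knockout at day 7, against 17.9 ± 2.81 FPKM in wild type (1.68, adjusted p = 1.80e-05). TLE4 was lower at day 3 (−0.52, adjusted p = 0.0250) and higher at day 15 (1.02, adjusted p = 4.63e-04). Its relative TLE2 was lower at day 3 (−1.54, adjusted p = 0.00267) and day 7 (−1.80, adjusted p = 4.79e-04). SPEN, a corepressor that binds RBPJ, was higher at all 3 days (0.80, 0.77 and 0.74, adjusted p = 0.00170, 9.79e-04 and 0.00162). CIR1, another corepressor of this list, was lower at all 3 days (−0.88, −1.09 and −1.13, limma adjusted p = 0.00695, 9.97e-04 and 0.00107).

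Of the other targets and relatives of HES and HEY, NRARP, a NOTCH target that limits the nuclear complex, was higher at all 3 days (0.84, 0.63 and 1.69, adjusted p = 0.00798, 0.0178 and 9.83e-05). At day 15 NRARP was 7.06 ± 0.36 FPKM in the labelled knockout, against 1.51 ± 0.17 FPKM in wild type. The day 3 call was lost without the second labelled knockout library (0.57, adjusted p = 0.0601) and the day 7 call without any single one of the 4 libraries (adjusted p = 0.0591 to 0.0893). BHLHE40, a related repressor that answers to hypoxia and the circadian clock, was higher at day 3 (1.63, adjusted p = 4.09e-04) and lower at day 7 (−1.53, adjusted p = 2.41e-04), as HES1 was. HEYL was at 2.02 ± 0.22 FPKM in the labelled knockout at day 7, against 1.11 ± 0.20 FPKM in wild type (0.52, adjusted p = 0.0435), a call lost without any single one of the 4 libraries (adjusted p = 0.0800 to 0.212).

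**Figure D5:**
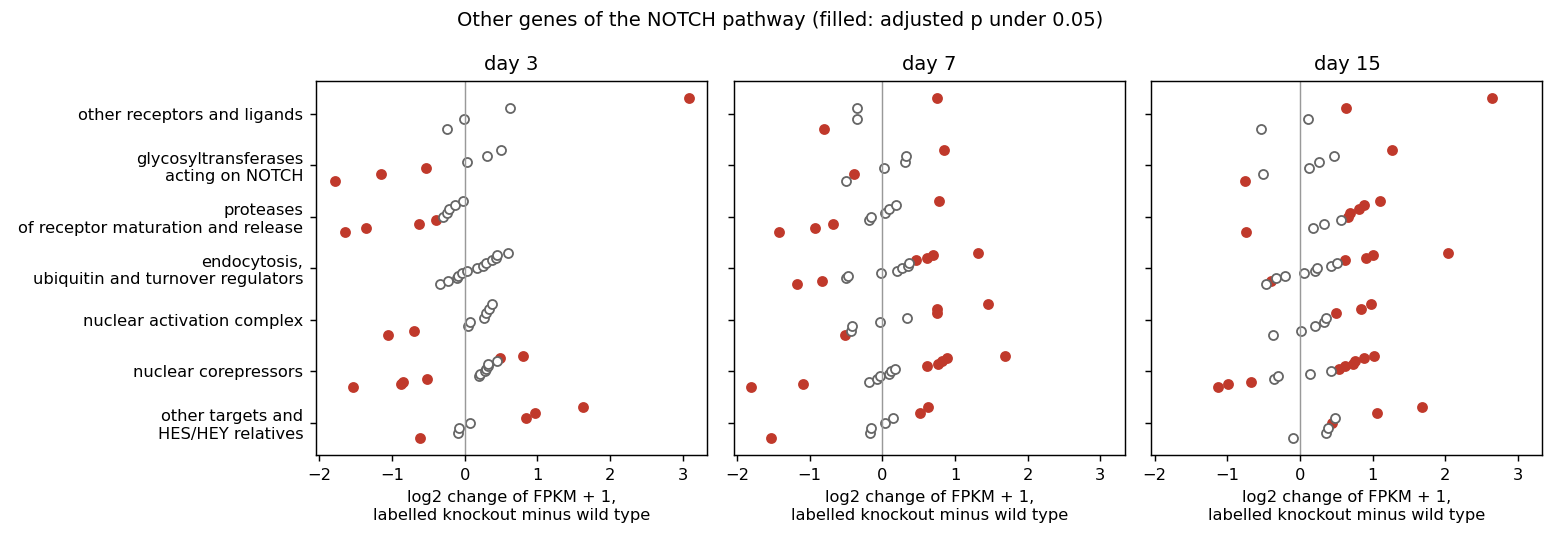
Log2 change of FPKM + 1 (horizontal axis), labelled knockout minus wild type, of the 60 other measured pathway genes at each day (panels), grouped by role (rows). Each point is a gene, offset within its row by rank only, and filled points have an adjusted p under 0.05. Protease genes with filled points stand below 0 at day 3, and 5 of 6 stand above it at day 15.

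Likeness of pattern was measured as Pearson's r of log2(FPKM + 1) over the 12 libraries, which share group, day and depth, against 10832 genes with a mean of at least 5 FPKM. Given as a description, the closest genes were SALL2 and BCL9 for NOTCH1 (r of 0.989 and 0.982), MDC1 and SMO for NOTCH2 (0.956 and 0.946), and GJC1 and FAM53C for NOTCH3 (0.988 and 0.985). They were RP4-773N10.4 and CD82 for JAG1 (0.973 and 0.972), CENPV and PLAUR for DLL1 (0.983 and 0.976), and LCK and SP5 for DLL3 (0.995 and 0.993). They were APELA and BCAS4 for HES1 (0.941 and 0.913), EMILIN1 and AJUBA for HES4 (0.958 and 0.949), BMP7 and BAIAP2-AS1 for HEY1 (0.950 and 0.946), and ISOC1 and NSA2 for HEY2 (0.948 and 0.908). Within the 10 genes, r was 0.963 between NOTCH1 and DLL1, 0.957 between NOTCH3 and DLL1, and 0.954 between NOTCH1 and NOTCH3. It was 0.845 between NOTCH2 and JAG1, 0.742 between HEY1 and HEY2, and −0.871 between DLL3 and HES4. NOTCH1 had r of −0.068 with HES1 and 0.047 with HEY1.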

How the data were processed

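RNA was extracted with Trizol and sequenced as Illumina libraries, per the labels' protocols. Each library came as 1 deposited table of gene symbols and FPKM. No label names this unit, which was read from how the values sum and step. BWA and hg38 (GRCh38) were used, per the submitters' processing notes, and the sources used here name neither the counting program nor its strand setting. Gene places are those of GENCODE on GRCh38.

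Differences were tested by limma-trend (limma 3.58.1, R 4.3.3) of log2(FPKM + 1), a scale that understates changes of low genes. The filter asked for 1 FPKM in 2 libraries and kept 16295 genes, leaving out 801. A model of 6 group means (6 residual degrees of freedom) gave every contrast. Two-sided p-values were adjusted (Benjamini-Hochberg) over these 16295 genes, and those under 0.05 passed. The code was tested on simulated data. Depth was estimated from steps in low values of single-transcript genes, of which 58.6% to 78.3% came within 0.1 of whole, so no counts were rebuilt and no counting intervals given.

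The 10 genes, the pathway and marker lists and the tests were chosen with earlier results of these data known. The text names the 10 genes and TCF3 whatever they show, and genes from up to 3 per pathway group and comparison by smallest adjusted p. It also names the 2 closest patterns per gene, and RBPJ, JAG2 and some markers, picked after their values were seen. Alternatives were other scalings, filters and pseudocounts, limma without trend, a replicate block, the compared groups alone, and leaving out each library.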

Additional observations from a re-analysis of the deposited data

Results flagged for a closer look

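The genotype effect of 10 gene and day pairs differed between neighbouring days by a test of the difference itself (limma, Benjamini-Hochberg adjusted over all genes). From day 3 to day 7 these were 7 of the 10 genes, beside 20.2% of all genes. From day 7 to day 15 they were 3 of the 10, near the 31.7% of all genes. Values are the labelled knockout minus wild-type log2 change of the later day less that of the earlier day, from 2 libraries per group. From day 3 to day 7 the receptors moved upward, NOTCH1 by 1.05 (adjusted p = 0.00598), NOTCH2 by 1.60 (adjusted p = 0.000900) and NOTCH3 by 1.05 (adjusted p = 0.00539). The ligands moved upward too, JAG1 by 1.35 (adjusted p = 0.00164), DLL1 by 3.30 (adjusted p = 0.000565) and DLL3 by 2.02 (adjusted p = 0.00106). DLL3 was under 5 FPKM in all 4 libraries of day 7. HES1 moved by −1.42 (adjusted p = 0.00140). From day 7 to day 15, NOTCH1 moved by 0.86 (adjusted p = 0.00986), HEY1 by 1.92 (adjusted p = 0.00134) and HEY2 by 1.67 (adjusted p = 0.000936).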

How the results depend on the processing

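Of 1159 recomputed log2 changes of the 10 genes, 1084 kept direction and side of the threshold, 38 lost the call, 20 gained one and 17 changed sign. Scaled to the sum without mitochondrial genes, values of changed sign were NOTCH3 at day 3 (0.12), TCF3 at day 3 (0.02), HEY1 at day 7 (0.06), NOTCH2 (0.06) and HES4 (0.09) in wild type at day 15 against day 7, and JAG1 for the effect of day 15 less that of day 7 (−0.09). TCF3 passed at day 7 so scaled (0.57) and in a fit on the compared groups alone (0.36). Median-ratio rescaling gave HES1 −0.03 in the labelled knockout at day 7 against day 3. On the compared groups alone, the genes called were 3657 at day 15 (5723 in the model of 6 groups) and 2084 in the labelled knockout at day 15 against day 7 (4628), and TCF3 at day 15 did not pass (0.66). Replicates were furthest apart in the labelled knockout at day 15, with a pooled SD of 0.323 on the log2 scale. The other groups had 0.208 to 0.267. The model of 6 groups shares the spread of a gene over all groups, so its day 15 SEs rest partly on tighter groups. The cause of the shifts in calls was not tested.

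Leaving out 1 library at a time, a setting in which a lone library is assumed to vary like the other groups, gave 1990 to 2503 genes called at day 3 (3849 with all), 4498 to 5241 at day 7 (6852) and 3803 to 5524 at day 15 (5723). It gave 2947 to 3284 (4668) and 2902 to 4897 (4628) in the labelled knockout at day 7 against day 3 and day 15 against day 7, and 1920 to 2558 (3285) for the effect of day 7 less that of day 3. Of the 10 genes, 2 to 3 were called at day 3 (4 with all) and 3 to 5 for the effect of day 15 less that of day 7 (3). TCF3 at day 15 ranged from 0.34 to 0.98. Sign was not kept for HES4 at day 3 (−0.67 to 0.72), day 15 (−0.53 to 0.02) and in wild type at day 15 against day 7 (−0.26 to 0.07), or for HEY1 at day 7 (−0.33 to 0.09). Nor was it for HES1 (−0.05 to 0.15) and HEY2 (−0.24 to 0.07) in the labelled knockout at day 7 against day 3, or for NOTCH3 (−0.44 to 0.06), JAG1 (−0.08 to 0.28) and DLL1 (−0.02 to 0.96) in the effect of day 15 less that of day 7. None of these sign changes was of a called value.

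The labels give the replicate numbers no meaning beyond a number. Deviations of same-numbered libraries of the 2 genotypes correlated at 0.037, 0.024 and −0.121 at days 3, 7 and 15, those between neighbouring days at 0.155 and 0.206 in the labelled knockout and 0.017 and 0.014 in wild type. With the replicate number as a block, 3859, 6914 and 5791 genes were called at these days, and 3, 7 and 7 of the 10, with an adjusted p of 0.0507 for DLL1 at day 3. In the labelled knockout at day 15 against day 7, the block gave 10 of the 10 called (9 without it), with HES1 added (adjusted p = 0.0417), and for the effect of day 15 less that of day 7 it gave 4 (3 without it). With 2 libraries per group and no depth in the files, values near or under 1 FPKM (DLL1 and DLL3 in wild type at day 15) are the least certain.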
